A study of Mus musculus with 8 samples.

Results

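The genes described here are brakes on phosphoinositide 3-kinase (PI3K) and on mTORC1, the growth-promoting kinase complex that PI3K signalling switches on. They are 10 genes of 18193 measured: Pik3ip1, Ddit4, Ddit4l, Sesn1, Sesn2, Sesn3, Tsc1, Tsc2, Deptor and Eif4ebp1. Every probe set that the platform annotation gives to one of these symbols and to no other was taken, 27 of the 45037 probe sets tested. Probe sets with a second symbol were not taken. The symbols were listed for their function with earlier results of the genotype comparison in view. The comparison of genotypes therefore describes these genes, and its p-values, adjusted over all 45037 probe sets, are no independent support for the choice of genes.

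RNA came from secondary neurospheres, clusters of neural stem and progenitor cells grown in suspension, here taken apart and regrown, and was read on Affymetrix Mouse430_2 arrays. The 4 FoxO3 null arrays came from forebrain cells of FoxO3-/- mice, and the 4 wild type arrays from those of FoxO3+/+ mice. Both genotypes are on the FVB/N strain, and all spheres were collected on day 6 of growth with 2 mitogens, EGF and bFGF, at 20 ng/ml each. The arrays fall into set 1 and set 2, each with 2 arrays of each genotype. The labels state neither what a set is nor the age, sex or number of the mice, and they leave unsaid whether the 2 arrays of a genotype in a set are separate cultures. The spread behind each p-value is that between arrays, and it may be technical.

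PI3K makes a membrane lipid that recruits the kinase Akt. Akt shuts off the TSC complex, which otherwise keeps the small GTPase Rheb inactive, and active Rheb turns on mTORC1, which promotes protein synthesis and cell growth. Akt also drives FoxO factors such as FoxO3 out of the nucleus, so FoxO3 is active when this pathway is quiet, and FoxO factors are known to transcribe some of the pathway's brakes. In neural stem cells the pathway is known for its part in the balance between quiescence and proliferation.

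Values are log2 expression levels made with RMA, so a difference of 1 is a doubling. Differences are FoxO3 null minus wild type, with set as a term in the fit. A probe set passed at a limma adjusted p under 0.05. Levels of different probe sets are not compared, since each has its own brightness.

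In FoxO3 null spheres Pik3ip1, Ddit4 and Sesn1 were lower and Ddit4l, the close relative of Ddit4, was higher. Ddit4 had the largest difference of the 27 probe sets, to 53.6% of the wild type signal. No probe set of Sesn2, Sesn3, Tsc1, Tsc2, Deptor or Eif4ebp1 passed. In all, 7 of the 27 probe sets passed, where 0.802% of all probe sets did. Of the 7, 5 were lower, from 3 genes, and 2 were higher, from 1 gene; over all probe sets 0.586% passed as lower and 0.215% as higher. The median difference was -0.0105 over the 27 probe sets and 0.0098 over all probe sets. None of the 7 passed in limma fits without moderation of the variance or with the mean of Y-linked genes as a covariate, and without the set term only Pik3ip1 1428332_at did. In bulk RNA, fewer cells of a type and less RNA per cell cannot be told apart.

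RefSeq start-site windows (GRCm38.p6; 250 bases before a start and 50 from it on) were at hand for 8 of the 10 genes, 9 windows in all. They are shown for the 4 genes with a passing probe set, with 1 of the 2 Sesn1 windows, the one that holds a motif, because the motifs that FoxO factors and the hypoxia factor HIF bind can be looked for in them. Capitals mark the forkhead motif GTAAACA or its reverse complement TGTTTAC, and the HIF core in the form ACGTG or its reverse complement CACGT. All else is in lower case, and each window runs 5′ to 3′ on the strand given.
Pik3ip1, chr11:3330481-3330780, plus strand: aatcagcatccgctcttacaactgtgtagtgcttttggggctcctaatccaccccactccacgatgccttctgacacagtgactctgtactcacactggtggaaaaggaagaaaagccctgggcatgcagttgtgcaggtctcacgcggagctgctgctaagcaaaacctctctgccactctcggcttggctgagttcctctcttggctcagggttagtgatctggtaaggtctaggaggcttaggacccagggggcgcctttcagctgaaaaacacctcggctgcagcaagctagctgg
Ddit4, chr10:59951721-59952020, minus strand: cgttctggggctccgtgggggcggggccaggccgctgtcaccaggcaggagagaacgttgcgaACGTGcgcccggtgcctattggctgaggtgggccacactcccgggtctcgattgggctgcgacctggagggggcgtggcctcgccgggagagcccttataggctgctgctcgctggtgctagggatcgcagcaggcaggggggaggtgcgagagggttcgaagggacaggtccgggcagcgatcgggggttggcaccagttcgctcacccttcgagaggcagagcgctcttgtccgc
Ddit4l, chr3:137623422-137623721, plus strand: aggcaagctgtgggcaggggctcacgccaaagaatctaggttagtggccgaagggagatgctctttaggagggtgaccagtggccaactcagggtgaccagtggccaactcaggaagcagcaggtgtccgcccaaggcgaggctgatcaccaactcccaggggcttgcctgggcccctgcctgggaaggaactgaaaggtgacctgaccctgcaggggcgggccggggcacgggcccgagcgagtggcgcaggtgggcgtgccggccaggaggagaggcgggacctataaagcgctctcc
Sesn1, chr10:41810324-41810623, plus strand: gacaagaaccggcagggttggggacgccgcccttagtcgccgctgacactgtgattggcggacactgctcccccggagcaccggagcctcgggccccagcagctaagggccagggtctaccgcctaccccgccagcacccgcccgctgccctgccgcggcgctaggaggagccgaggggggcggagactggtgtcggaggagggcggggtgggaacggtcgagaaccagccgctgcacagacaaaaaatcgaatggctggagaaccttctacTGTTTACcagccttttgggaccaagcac
The forkhead motif was in 1 of the 9 windows, that of the Sesn1 start shown, where its first base is base 23 from the start. It was in 3.65% of all 32851 windows of this length. The shorter TAAACA, which lies inside GTAAACA, was in the same Sesn1 window alone, and in 13.4% of all windows. In the form ACGTG the HIF core was in 1 of the 9, at Ddit4, and in 19.6% of all windows. Its first base at Ddit4 is 187 bases before the start. The variant GCGTG was not searched over all windows, so its share there is not known. It or its reverse complement CACGC is in the Pik3ip1, Ddit4 and Ddit4l windows shown. It is also in the windows of Tsc1 and Tsc2, which had no passing probe set, and in the Sesn1 window not shown. These matches describe letters only, and the Pik3ip1 window lies at a start inside the gene span (chr11:3319241-3342971), not at its outer end.

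Pik3ip1 (chr11:3319241-3342971) encodes a transmembrane protein that binds the catalytic subunit of PI3K and lowers its activity. Probe set 1428332_at read 8.92 and 9.01 in the FoxO3 null arrays of set 1 and 8.88 and 8.92 in those of set 2, against 9.64 and 9.50 in the wild type arrays of set 1 and 9.68 and 9.60 in those of set 2. Every FoxO3 null array lay below every wild type array. The level averaged 8.93 ± 0.06 in FoxO3 null and 9.61 ± 0.08 in wild type arrays (SD, n = 4 each). It fell by 0.67 ± 0.06 (SE; limma adjusted p = 0.00194), to 62.7% of wild type. The other probe set, 1439087_a_at, read 8.64, 8.77, 8.83 and 8.89 in FoxO3 null arrays 1_1, 1_2, 2_1 and 2_2, against 9.13, 9.22, 9.63 and 9.52 in the wild type arrays of the same numbers. It fell by 0.59 ± 0.07 (limma adjusted p = 0.00572), again with no overlap of the groups. Pik3ip1 was the only one of the 10 genes with probe sets passing in set 2, by 0.74 (limma adjusted p = 0.0045) and 0.72 (limma adjusted p = 0.0055). Both passing calls held without any 1 array, with adjusted p between 0.00454 and 0.0285 in those fits. With the Y-linked covariate the differences were -0.49 and -0.37 (limma adjusted p = 0.256 and 0.524), and 1439087_a_at also missed the threshold without the set term (limma adjusted p = 0.579) and with the 2 arrays of a set and genotype averaged (limma adjusted p = 0.0893).

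**Figure D1:**
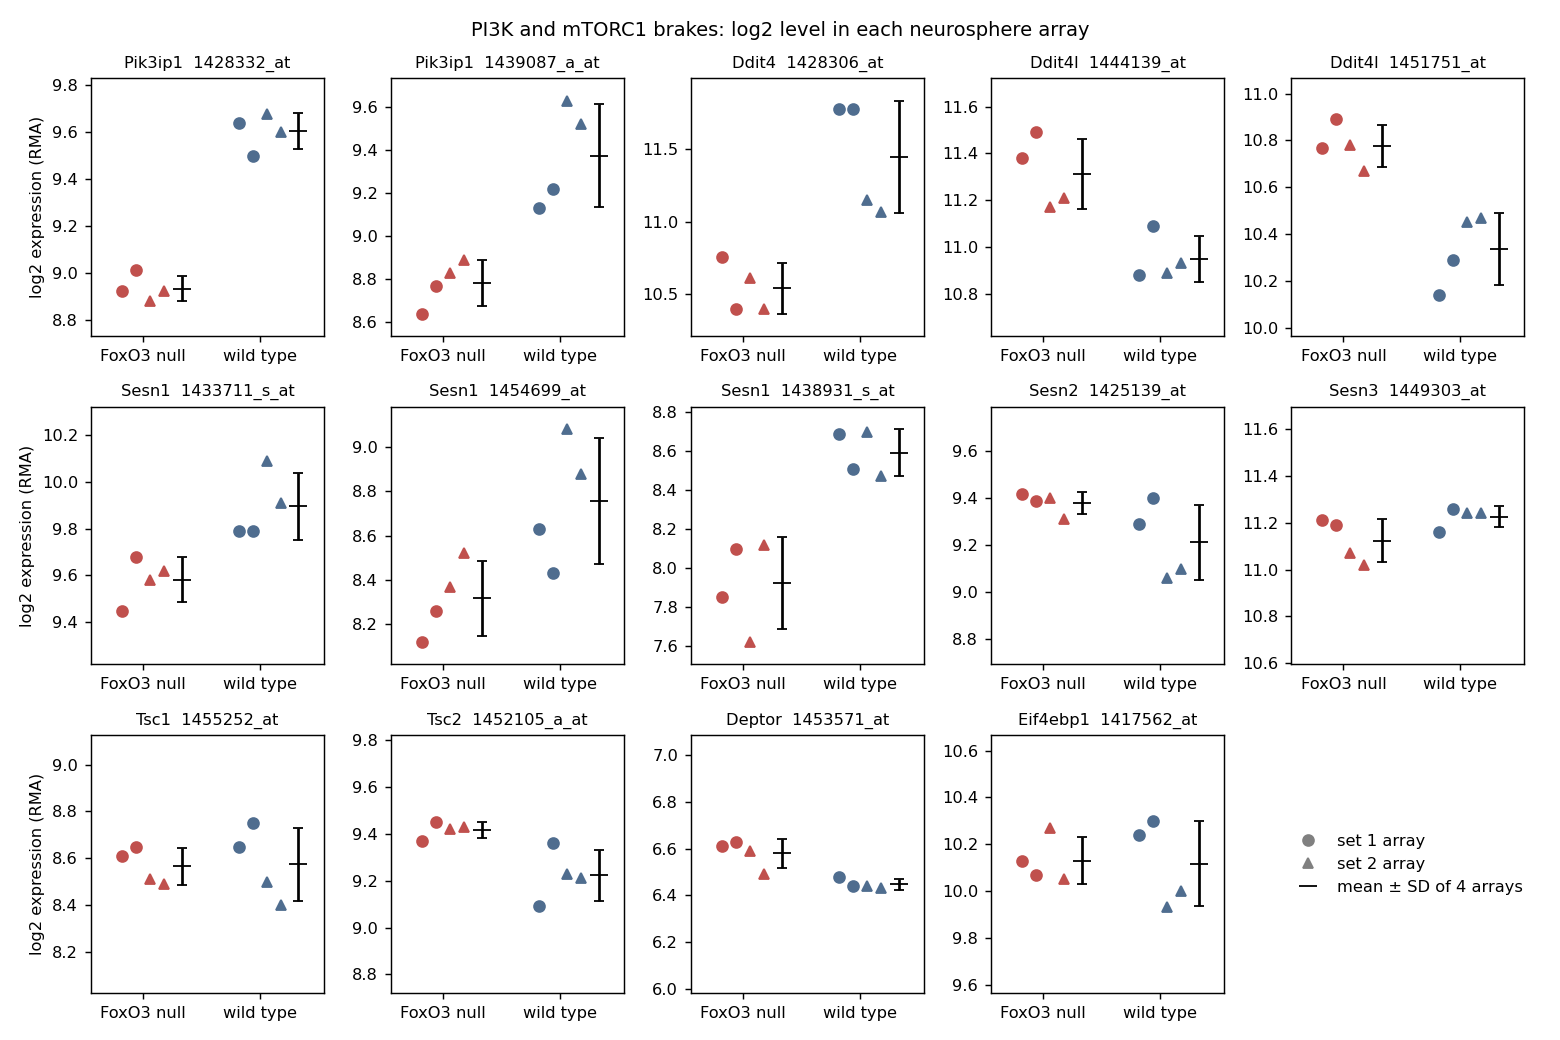
Log2 expression (RMA) in each array for the brightest probe set of each gene and for every other probe set that passed, FoxO3 null arrays left of wild type arrays; circles are set 1, triangles set 2, and the bar is the mean ± SD of 4 arrays. Pik3ip1, Ddit4, Ddit4l, Tsc2 and Deptor separate the genotypes completely, while the Sesn2, Sesn3, Tsc1 and Eif4ebp1 panels overlap. Of the Sesn1 panels only 1454699_at overlaps. The Tsc2 and Deptor probe sets and Sesn1 1433711_s_at did not pass.

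Ddit4 and Ddit4l encode the REDD proteins, inhibitors of mTORC1 that act through the TSC complex. Ddit4 (REDD1) is induced by hypoxia, energy stress and glucocorticoids. Its single probe set, 1428306_at, read 10.76 and 10.40 in the FoxO3 null arrays of set 1 and 10.61 and 10.40 in those of set 2, against 11.78 in both wild type arrays of set 1 and 11.15 and 11.07 in those of set 2. The wild type arrays thus stood apart by set more than the FoxO3 null arrays did, and the groups did not overlap. Ddit4 averaged 10.55 ± 0.18 in FoxO3 null and 11.45 ± 0.39 in wild type arrays (SD, n = 4 each). It fell by 0.90 ± 0.12 (SE; limma adjusted p = 0.0109). Without wild type array 1_1 its adjusted p was 0.0618, and it was 0.102 when the 2 arrays that share a set and a genotype were averaged into 1 sample. With the Y-linked covariate its difference was -1.45 (limma adjusted p = 0.065).

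Ddit4l (REDD2; chr3:137623672-137628332), a paralog best known from skeletal muscle, had 3 probe sets, and in all 3 every FoxO3 null array lay above every wild type array. Probe set 1444139_at read 11.38, 11.49, 11.17 and 11.21 in FoxO3 null arrays 1_1, 1_2, 2_1 and 2_2, against 10.88, 11.09, 10.89 and 10.93 in the wild type arrays. It rose by 0.36 ± 0.07 (SE; limma adjusted p = 0.0372), or 1.29-fold. Probe set 1451751_at read 10.77, 10.89, 10.78 and 10.67 in FoxO3 null arrays, against 10.14, 10.29, 10.45 and 10.47 in wild type arrays. It rose by 0.44 ± 0.08 (limma adjusted p = 0.0372), or 1.36-fold. The dimmest of the Ddit4l probe sets, 1439332_at, read 10.70, 10.73, 10.28 and 10.38 in FoxO3 null arrays, against 10.18, 10.24, 10.23 and 10.19 in wild type arrays. Its difference of 0.31 ± 0.08 did not pass (limma adjusted p = 0.125). The Ddit4l calls were close to the threshold: without any 1 array, 1444139_at missed it in all 8 fits (limma adjusted p between 0.0611 and 0.122) and 1451751_at in 7 of 8, all but the fit without FoxO3 null array 2_2 (limma adjusted p = 0.0479).

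The sestrins are stress proteins that restrain mTORC1 when amino acids are short, by binding the GATOR2 complex, and Sesn2 is known as a leucine sensor. Sesn1 is a target of p53 and of FoxO factors, Sesn2 of ATF4 and p53, and Sesn3 of FoxO factors. Of the 8 probe sets of the 3 sestrins, 2 passed, both of Sesn1. Probe set 1438931_s_at read 7.85, 8.10, 7.62 and 8.12 in FoxO3 null arrays 1_1, 1_2, 2_1 and 2_2, against 8.69, 8.51, 8.70 and 8.47 in the wild type arrays. It fell by 0.67 ± 0.11 (SE; limma adjusted p = 0.0261), to 63.1% of wild type, with no overlap. Probe set 1454699_at read 8.12, 8.26, 8.37 and 8.52 in FoxO3 null arrays, against 8.63, 8.43, 9.08 and 8.88 in wild type arrays. The groups overlapped across sets, since FoxO3 null array 2_2 lay above wild type array 1_2, but not within a set. It fell by 0.44 ± 0.08 (limma adjusted p = 0.0334).

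The brightest Sesn1 probe set, 1433711_s_at, read 9.45, 9.68, 9.58 and 9.62 in FoxO3 null arrays, against 9.79, 9.79, 10.09 and 9.91 in wild type arrays. Its groups did not overlap, and its difference of -0.32 ± 0.07 missed the threshold (limma adjusted p = 0.0872). The dim probe set 1444376_at, at 4.82, 4.84, 4.81 and 4.85 in FoxO3 null arrays and 4.74, 4.83, 4.79 and 4.70 in wild type arrays, lay below the median of all probe sets (6.28) and had a difference of 0.07 ± 0.05 (limma adjusted p = 0.67). The Sesn1 calls were lost in several fits: 1438931_s_at in 5 and 1454699_at in 6 of the 8 without 1 array (limma adjusted p up to 0.11 and 0.128). Both held without FoxO3 null array 1_2 and without wild type array 1_2, and 1438931_s_at also without FoxO3 null array 2_2. With the Y-linked covariate their differences were -0.29 and -0.14 (limma adjusted p = 0.883 and 0.938).

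Sesn1 (chr10:41810574-41908436) lies 273.4 kb from Foxo3 (chr10:42181845-42276695), and Ddit4 (chr10:59949675-59951770) lies 17.7 Mb from it on the same chromosome. None of the other 8 genes is on chromosome 10. Of the 38 probe sets of genes within 1 Mb of Foxo3, its own left out, 2 passed, both of Sesn1, and the median difference of the 38 was 0.032. Within 20 Mb, 11 of 387 passed, which is 2.84%, 6 lower and 5 higher in FoxO3 null arrays. The 6 lower ones include the 2 of Sesn1 and that of Ddit4. Over all probe sets 0.802% passed, 0.586% as lower and 0.215% as higher.

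Sesn2 (chr4:132492804-132510456) differed little between genotypes. Its probe set 1425139_at read 9.42, 9.39, 9.40 and 9.31 in FoxO3 null arrays 1_1, 1_2, 2_1 and 2_2, against 9.29, 9.40, 9.06 and 9.10 in wild type arrays. The difference was 0.17 ± 0.06 (SE; limma adjusted p = 0.294), with an unadjusted 95% interval from 0.03 to 0.30. Probe set 1451599_at read 8.51, 8.76, 8.26 and 8.13 in FoxO3 null arrays, against 8.70, 8.75, 8.03 and 8.12 in wild type arrays. Here the sets stood apart in both genotypes: set 2 was 0.54 below set 1 (limma adjusted p = 0.000327), while the genotypes differed by 0.02 ± 0.07.

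The 2 probe sets of Sesn3 (chr9:14276301-14326134) went opposite ways, and neither passed. Probe set 1449303_at read 11.21, 11.19, 11.07 and 11.02 in FoxO3 null arrays, against 11.16, 11.26, 11.24 and 11.24 in wild type arrays. The difference was -0.10 ± 0.06 (limma adjusted p = 0.513), with an unadjusted 95% interval from -0.23 to 0.02. Probe set 1453313_at read 9.56, 9.83, 9.67 and 9.66 in FoxO3 null arrays, against 9.28, 9.64, 9.60 and 9.62 in wild type arrays, where array 1_1 lay apart from the other 3. Its difference was 0.14 ± 0.09 (limma adjusted p = 0.564).

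**Figure D2:**
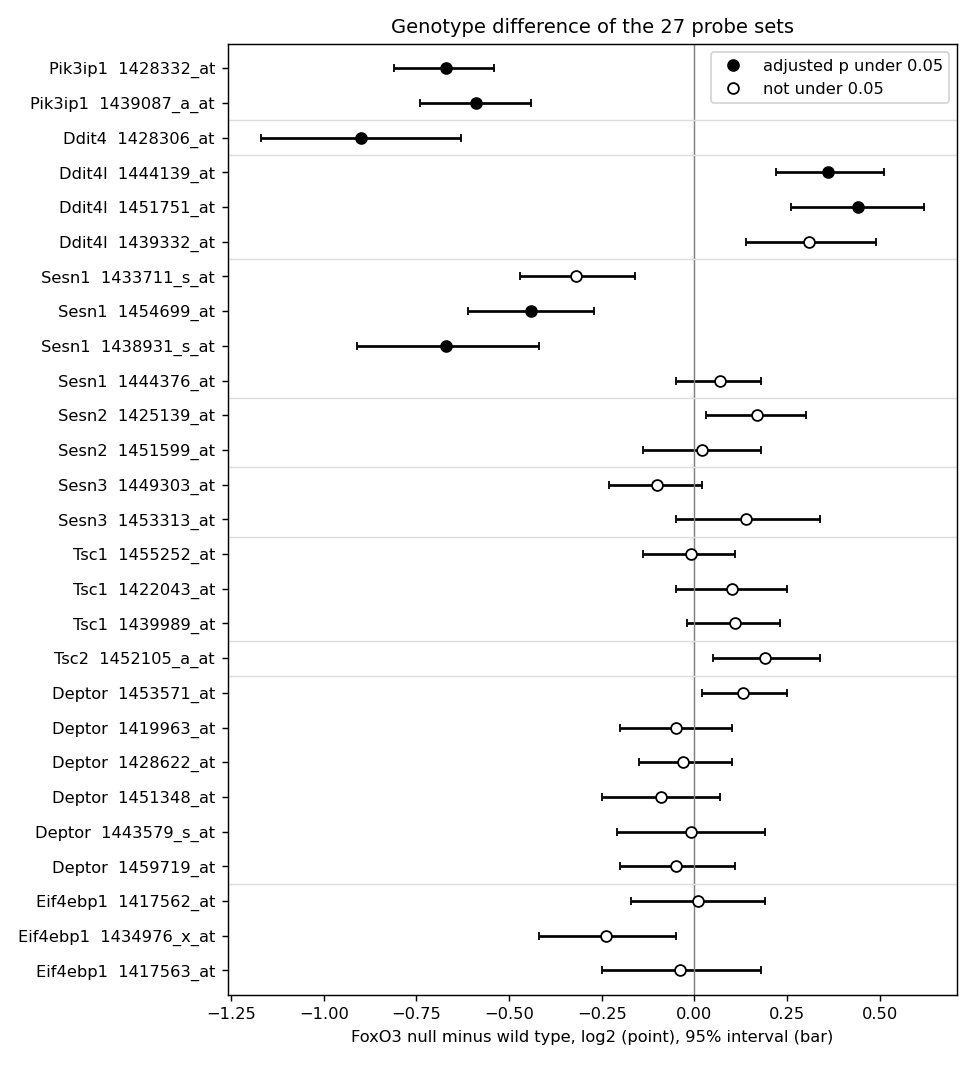
Difference in log2 expression between FoxO3 null and wild type arrays (point) with its unadjusted 95% interval (bar) for each of the 27 probe sets, grouped by gene; filled points have a limma adjusted p under 0.05. The 5 filled points left of 0 are those of Pik3ip1, Ddit4 and Sesn1, and the 2 right of 0 are those of Ddit4l.

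Tsc1 and Tsc2 encode hamartin and tuberin, the core of the complex that switches Rheb off, and loss of either activates mTORC1. For Tsc1 (chr2:28640993-28691172), the brightest probe set 1455252_at read 8.61, 8.65, 8.51 and 8.49 in FoxO3 null arrays 1_1, 1_2, 2_1 and 2_2, against 8.65, 8.75, 8.50 and 8.40 in wild type arrays. Its difference was -0.01 ± 0.06 (SE; limma adjusted p = 0.969), with an unadjusted 95% interval from -0.14 to 0.11. The dimmer probe sets had positive differences that did not pass: 0.10 ± 0.07 for 1422043_at and 0.11 ± 0.06 for 1439989_at. Probe set 1422043_at read 5.96, 6.14, 6.07 and 6.10 in FoxO3 null arrays, against 6.06, 5.93, 6.02 and 5.84 in wild type arrays. For 1439989_at the values were 5.29, 5.13, 5.38 and 5.41 in FoxO3 null arrays, against 5.05, 5.15, 5.27 and 5.31 in wild type arrays. Both lay below the median of all probe sets.

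For Tsc2 (chr17:24595816-24632676), probe set 1452105_a_at read 9.37, 9.45, 9.42 and 9.43 in FoxO3 null arrays, against 9.09, 9.36, 9.23 and 9.21 in wild type arrays. All FoxO3 null arrays lay above all wild type arrays, with a small difference of 0.19 ± 0.06 that did not pass (limma adjusted p = 0.24). Groups failed to overlap in 10 of the 27 probe sets, 5 with FoxO3 null lower and 5 with it higher. Over all probe sets this share was 3.11%, 1.33% with FoxO3 null lower and 1.78% with it higher.

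Deptor (chr15:55112317-55259273) encodes a protein that binds mTOR itself and inhibits it. Its 6 probe sets were dim, with no array above 6.63, and none passed. The brightest, 1453571_at, read 6.61, 6.63, 6.59 and 6.49 in FoxO3 null arrays 1_1, 1_2, 2_1 and 2_2, against 6.48, 6.44, 6.44 and 6.43 in wild type arrays. The groups did not overlap, and the difference was 0.13 ± 0.05 (SE; limma adjusted p = 0.309). The other 5 had differences between -0.09 and -0.01.

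In 4 of the 6 Deptor probe sets, none of them the brightest, the sets differed. Probe set 1451348_at read 4.58, 4.50, 5.31 and 5.41 in FoxO3 null arrays, against 4.42, 4.53, 5.57 and 5.62 in wild type arrays. It was 0.97 ± 0.07 higher in set 2 than in set 1 (SE; limma adjusted p = 7.89e-06), with every set 2 array above every set 1 array. Probe set 1428622_at read 5.77, 5.94, 6.45 and 6.52 in FoxO3 null arrays, against 5.84, 5.87, 6.53 and 6.54 in wild type arrays, and was 0.65 higher in set 2 (limma adjusted p = 1.82e-05). Probe set 1443579_s_at read 4.66, 4.59, 4.80 and 4.93 in FoxO3 null arrays, against 4.61, 4.40, 5.17 and 4.85 in wild type arrays, and was 0.37 higher in set 2 (limma adjusted p = 0.00805). In contrast, the dimmest, 1459719_at, with 4.38, 4.41, 4.20 and 4.29 in FoxO3 null arrays and 4.62, 4.57, 4.15 and 4.12 in wild type arrays, was lower in set 2 by 0.31. Probe set 1419963_at, with 6.43, 6.27, 6.40 and 6.30 in FoxO3 null arrays and 6.30, 6.35, 6.39 and 6.57 in wild type arrays, showed no set difference that passed (limma adjusted p = 0.405). Over all 27 probe sets, 11 differed between sets, 6 higher and 5 lower in set 2, where 38.4% of all probe sets did.

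Eif4ebp1 (chr8:27260327-27275656) encodes 4E-BP1, which holds back the cap-binding factor eIF4E until mTORC1 phosphorylates it. It acts below mTORC1, as a brake on translation. Probe set 1417562_at read 10.13, 10.07, 10.27 and 10.05 in FoxO3 null arrays 1_1, 1_2, 2_1 and 2_2, against 10.24, 10.30, 9.93 and 10.00 in wild type arrays. Both FoxO3 null arrays were lower in set 1 and both were higher in set 2, and the difference over both sets was 0.01 ± 0.08 (SE; limma adjusted p = 0.98). Probe set 1434976_x_at read 10.05, 10.08, 10.03 and 9.81 in FoxO3 null arrays, against 10.51, 10.47, 9.98 and 9.96 in wild type arrays. Its difference was -0.24 ± 0.08 (limma adjusted p = 0.259), with -0.42 in set 1 and -0.05 in set 2. The dim 1417563_at read 6.26, 6.05, 6.15 and 6.33 in FoxO3 null arrays, against 6.26, 6.08, 6.08 and 6.52 in wild type arrays, a difference of -0.04 ± 0.10.

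Whether the genotype differences themselves differed between sets was tested with an interaction term; the choice of genes named the differences in each set too, so these values are also a description. None of the 27 probe sets passed (limma, lowest adjusted p = 0.387), where 0.0688% of all probe sets did. At an unadjusted p under 0.05 there were 7 of the 27, and 7.54% of all probe sets. Ddit4 was 1.20 ± 0.12 lower in FoxO3 null arrays in set 1 (limma adjusted p = 0.00734) and 0.60 ± 0.12 lower in set 2 (limma adjusted p = 0.0546). The difference between these, 0.60, had an unadjusted 95% interval from 0.22 to 0.97 (limma adjusted p = 0.416). Ddit4l leaned the same way in size, at 0.61 in set 1 and 0.26 in set 2 for 1451751_at, and at 0.51 and 0.11 for 1439332_at. Pik3ip1 and Sesn1 had the larger differences in set 2: -0.60 in set 1 and -0.74 in set 2 for Pik3ip1 1428332_at, and -0.34 and -0.54 for Sesn1 1454699_at. Their interaction intervals, from -0.40 to 0.12 and from -0.53 to 0.14, include 0.

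Within set 1, 4 of the 27 probe sets passed, 1 each of Pik3ip1 and Ddit4 and 2 of Ddit4l, where 0.284% of all probe sets passed, 0.202% as lower and 0.0822% as higher. Within set 2, 2 passed, both of Pik3ip1, where 0.91% of all probe sets passed, 0.495% as lower and 0.415% as higher. With no model, an exact permutation of arrays within sets gave each of the 7 passing probe sets p = 0.0556 (two-sided), the smallest p it can give, so this test cannot reach 0.05 here. Ddit4l 1439332_at, Sesn1 1433711_s_at, Tsc2 1452105_a_at and Deptor 1453571_at, which did not pass, had the same p. Any probe set whose arrays separate the same way in both sets gets it, and 11.9% of all probe sets did so.

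**Figure D3:**
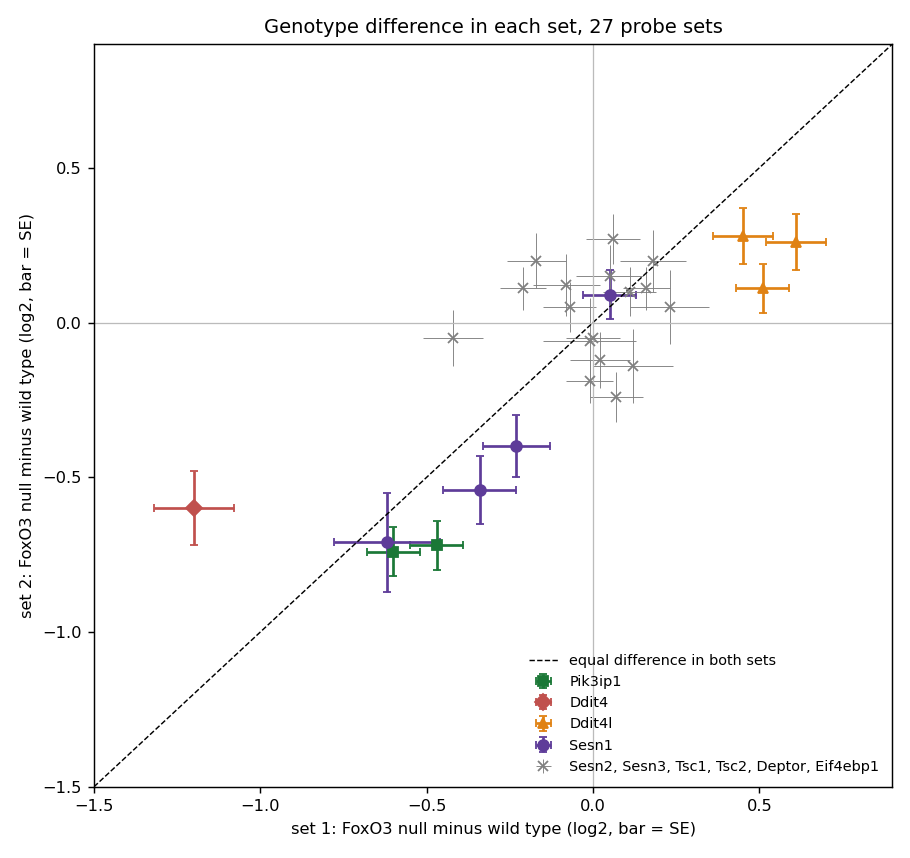
Difference in log2 expression, FoxO3 null minus wild type, in set 1 (horizontal) and in set 2 (vertical) for the 27 probe sets, with bars of 1 SE; the dashed line marks equal differences. Ddit4 lies above the line at -1.20 and -0.60, the Ddit4l probe sets lie below it, and the probe sets of the 6 genes with none passing lie between -0.42 and 0.27 on both axes.

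The rest of the pathway showed few differences, in gene lists that were drawn up with earlier results of these data known. Each gene stood by its brightest probe set, and 1.12% of all such probe sets passed, 0.874% as lower and 0.242% as higher. In the PI3K and Akt arm 0 of 11 genes passed (median difference 0.03), and all were between -0.19 and 0.20. The smallest p-values there were those of Pik3r1, a regulatory subunit of PI3K (0.20 ± 0.06 (SE), limma adjusted p = 0.178), and Irs1, an insulin receptor substrate (-0.19 ± 0.06). Among the kinase complexes of mTOR and their outputs 0 of 14 passed (median 0.01). The Rheb relative Rhebl1 had -0.25 ± 0.08 and the cap-binding factor Eif4e 0.13 ± 0.05. Among 17 genes of amino acid sensing at the lysosome, 0 passed (median -0.02). Rragd, a Rag GTPase, came nearest (9.30 ± 0.09 in FoxO3 null and 9.65 ± 0.12 in wild type arrays, SD, n = 4 each; difference -0.36, limma adjusted p = 0.0578), and Rraga had 0.34 ± 0.15.

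Of 17 other brakes, 1 fell and 0 rose (median -0.02). The one that fell was Castor2, a relative of the arginine sensor of the GATOR2 complex, with 8.52 ± 0.22 in FoxO3 null and 8.99 ± 0.21 in wild type arrays (SD, n = 4 each; difference -0.47 ± 0.08 (SE), limma adjusted p = 0.0287) and no overlap. Trib3, a pseudokinase that binds Akt, had -0.32 ± 0.07 (limma adjusted p = 0.0616).

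The same was done for targets of stress factors that induce these brakes. Of 11 measured p53 targets, which share their inducer with Sesn1 and Sesn2, 0 passed (median -0.01), with Gtse1 at 0.20 and the cell cycle inhibitor Cdkn1a at -0.20. Of 12 ATF4 targets, which include Sesn2, 1 fell, the stress factor Ddit3 (-0.38 ± 0.07 (SE), limma adjusted p = 0.0489), and the median was -0.02. Of 12 HIF targets, 4 fell, 0 rose and all 12 had a negative difference (median -0.54). Those that fell were Mxi1, a Myc antagonist (-0.50), the glucose transporter Slc2a1 (-0.67), the peptide Adm (-0.55) and the vascular growth factor Vegfa (-0.84). The mean log2 level of the HIF targets ranged from 9.30 to 9.93 in FoxO3 null arrays and from 10.10 to 10.33 in wild type arrays. Ddit4, itself hypoxia-inducible, was also lower in FoxO3 null arrays. The part of hypoxia in the Ddit4 difference was not tested.

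**Figure D4:**
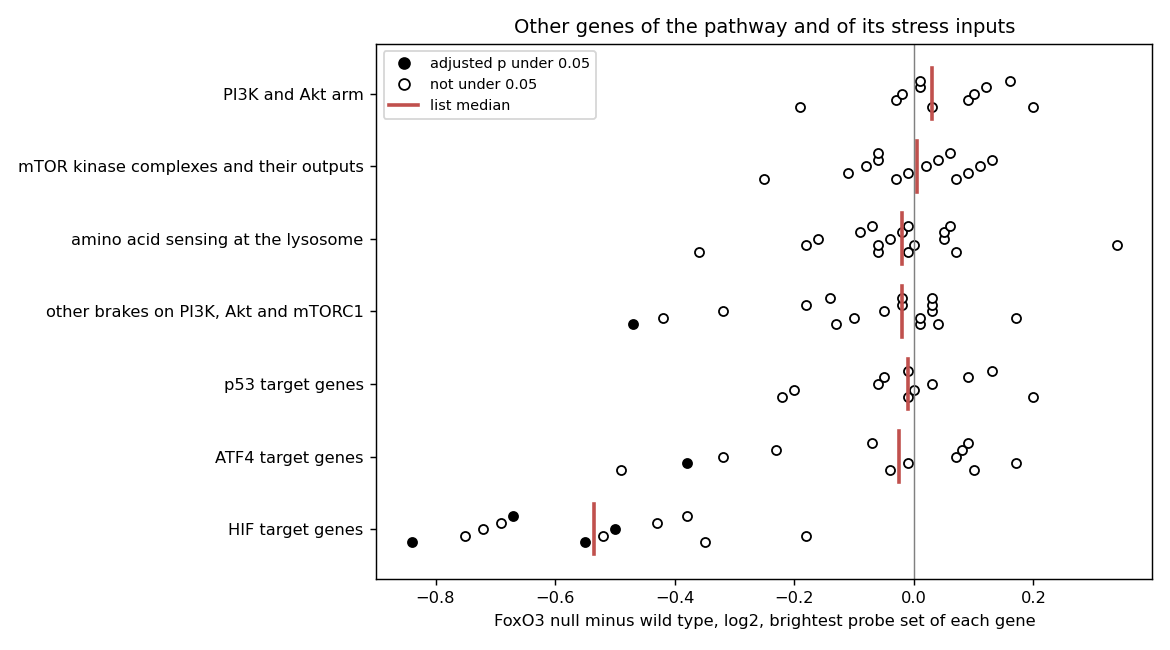
Difference in log2 expression, FoxO3 null minus wild type, for the brightest probe set of each gene in 7 lists; filled points have a limma adjusted p under 0.05 and the red bar is the list median. The lists of pathway components centre near 0, and the HIF targets lie left of 0 with a median of -0.54.

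For the 3 of the 10 genes with the smallest p in any probe set, the genes with the most similar pattern were found by Pearson correlation of brightest probe sets over the 8 arrays, after each set was centred on its mean. The brightest Sesn1 probe set is 1433711_s_at, which did not pass. For Pik3ip1 these were Ypel3 (r = 0.996), Ppm1b (0.994) and Lhfpl3 (0.992). For Ddit4 they were the collagen-modifying enzyme Plod2 (0.995), the sugar phosphate enzyme Pgm1 (0.991) and Aldh18a1 of proline synthesis (0.985). For Sesn1 they were Rras (0.996), Clic1 (0.990) and Trappc6a (0.988). With 8 arrays such values are common: 105, 62 and 64 genes had r above 0.95 with Pik3ip1, Ddit4 and Sesn1. The genotype difference was left in these values, so genes that differ clearly between genotypes can correlate highly for that alone.

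Across the whole series, array medians lay between 6.27 and 6.31, and arrays of a set correlated at 0.996 or more. Foxo3 fell in its brightest probe sets, to 9.03 ± 0.12 in FoxO3 null against 10.20 ± 0.14 in wild type arrays for 1434831_a_at (SD, n = 4 each; limma adjusted p = 0.000649). It fell to 8.25 ± 0.33 in FoxO3 null against 9.32 ± 0.09 in wild type arrays for 1434832_at (limma adjusted p = 0.0021). The probe set 1444226_at, shared with another gene, fell by 0.48 (limma adjusted p = 0.0207), and the dim 1450236_at had 0.33 (limma adjusted p = 0.11). Which part of Foxo3 the null allele lacks is not in the labels. Of 6 stem and progenitor markers 0 passed, and their mean level was 11.13 to 11.25 in FoxO3 null and 11.17 to 11.27 in wild type arrays. Of 6 astrocyte markers 1 fell (Slc1a2, -0.84), with 4 differences negative and 2 positive (median -0.13). Their mean level was 9.85 to 10.37 in FoxO3 null and 9.96 to 10.62 in wild type arrays. Of 5 oligodendrocyte lineage markers 3 fell (Pdgfra -0.67, Cspg4 -0.56 and Sox10 -0.27), while Mbp, at 0.44, and Olig2, at -0.04, did not pass. The mean level of these 5 was 9.42 to 10.37 in FoxO3 null and 9.49 to 10.72 in wild type arrays. Of 6 neuronal, 6 microglial and 6 endothelial or mural markers 0 passed. The averaged log2 level of Eif2s3y, Kdm5d and Uty, which are Y-linked, ranged from 6.88 to 8.09 in FoxO3 null and from 7.66 to 8.35 in wild type arrays. Of these 3 genes 1 fell (Uty, -0.42, limma adjusted p = 0.0423), and Eif2s3y had -0.64 and Kdm5d -0.45, neither of which passed. The actin 3' minus 5' difference, a sign of RNA quality, was 0.33 to 0.49 in FoxO3 null and 0.36 to 0.54 in wild type arrays. That of Gapdh was -0.11 to -0.09 in FoxO3 null and -0.11 to -0.07 in wild type arrays. The part of these markers in the differences of the brakes was not tested.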

How the data were processed

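RNA levels were measured on 8 Affymetrix arrays. Deposited values are on the log2 scale and, per the submitters' processing notes, come from RMA; its version, and whether all arrays were processed together, are not given in the sources used here. RMA makes changes look smaller where signal is dim, and its quantile step removes shifts that all genes share. Scanner files were not used here. Of 45101 probe sets, 64 Affymetrix controls were left out. Platform annotation gave 1 symbol to 34945 of the other 45037, several to 932 and none to 9160.

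Genotypes were compared with limma 3.58.1 (R 4.3.3; lmFit, eBayes, two-sided, Benjamini-Hochberg over 45037 probe sets) with set as a term. Contrasts within sets and the interaction came from a fit of 4 groups of set and genotype. Precision is limited by there being few arrays, among other things. The fits were tested on simulated data. Alternatives covered the set term, blocks, array means, normalization, filters, the variance model, thresholds, a covariate and leaving out each array.

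Members and lists were chosen with earlier results of these data known. Named were every member probe set, all Foxo3 probe sets, the actin and Gapdh controls, the 3 genes most alike to each of 3 members, and per list up to 4 passing genes by smallest p, or the 2 smallest p where fewer than 2 passed; of the marker lists, passing genes were to be named, and Mbp, Olig2, Eif2s3y and Kdm5d were added after their values were seen. The forkhead motif and its shorter form were fixed with those lists, and the HIF core in the form ACGTG was added later. Members were taken by the platform annotation, and positions and start-site windows are from RefSeq (GRCm38.p6).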

Additional observations from a re-analysis of the deposited data

Results flagged for a closer look

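Among the 54 groups of 4 arrays (27 probe sets in each genotype), 1 held an array far from the others. In Sesn3 probe set 1453313_at, wild type array 1_1 read 9.28, while the other 3 wild type arrays read 9.60 to 9.64. The gap was 0.897 of the whole range, above Dixon's 95% critical value for 4 samples. Chance flags about 1 in 20 such groups.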

How the results depend on the processing

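No alternative turned the sign of any of the 7 passing probe sets, and renewed quantile normalization, centring on the median and a robust variance prior left the same 7 passing. Leaving out 1 array at a time left 83 to 271 probe sets passing in all and 2 to 5 of the 27; these counts were 254 and 3 without FoxO3 null array 1_1, 162 and 5 without 1_2, 137 and 3 without 2_1 and 128 and 5 without 2_2, and 83 and 2 without wild type array 1_1, 271 and 5 without 1_2, 85 and 3 without 2_1 and 185 and 3 without 2_2. With no set term 3 probe sets passed in all and 1 of the 27, with set as a random block 63 and 3, and with array means 39 and 2. With the replicate block 138 and 3 passed, the 2 of Pik3ip1 and that of Ddit4. Same-numbered arrays did not deviate together from the fit with set and genotype (correlations between -0.32 and -0.19), so the numbers were not taken as pairs. The form of the fit makes such correlations lean negative even without pairing, so this check is a weak one. With set and genotype as a random block (correlation -0.26) 1354 passed in all, with a variance trend 825, at adjusted p under 0.1 714, and at 1.5-fold or more 88 and 4. With the brightest probe sets alone 3 of 10 members passed. Without moderation of the variance limma passed 0 and 0 (5134 and 12 at an unadjusted p under 0.05), and with the mean of Y-linked genes added to the model 0 and 0 (2890 and 8), where Ddit4 had -1.45 (adjusted p = 0.065). In set 1 alone 1 of the 27 passed. Adjusted over the brightest probe sets, the 7 lists held 10 passing entries instead of 6. With 4 arrays a genotype, changes in dim probe sets such as those of Deptor are the least well resolved.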
